A study of Venturia canescens with 6 samples.

Results

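A set of 49 gene models was examined, out of 22333 gene models counted in heads of the parasitoid wasp Venturia canescens, that were well expressed and modestly higher in an asexual than in a sexual population. The models were chosen by measured values. Each had a mean of at least 80 and under 1000 CPM (counts scaled to the library total) over all 6 libraries. Each also had a mean asexual level at least 1.4 and under 2 times the mean sexual level, with every asexual library above every sexual library. Models numbered 2001 to 5500 and from 20001 on were left out. The same level and identifier range without the condition on the ratio held 2339 well-expressed models, so the members were 2.09% of them.

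Venturia canescens lays its eggs in moth larvae. In its sexual populations unfertilised eggs give sons and fertilised eggs give daughters, as in most wasps, whereas in its asexual populations unfertilised eggs give daughters and no males are needed. The head holds the brain, the compound eyes, the antennae and the mouthparts, through which a female finds hosts, food and, in sexual populations, mates.

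Heads of adult females were taken at emergence, and 30 heads were pooled per library, giving 3 libraries of the sexual and 3 of the asexual population. Library totals ranged from 9265064 counts in asexual replicate 1 to 13117716 counts in sexual replicate 3. Each reproductive mode stands for 1 population, so reproductive mode and any other difference between these populations cannot be told apart. In whole heads, fewer cells of a type and less RNA per cell cannot be told apart either. The gene models carry numbers only, and 0 of them matched an identifier in the RefSeq gene table of the species. The files do not pair them with names, so no function is given for any member and the head label was not checked against marker genes.

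In 2 libraries only, counts were summed over models nearly absent from the other pools of the same population but present throughout the other population. No matching figure was taken for the remaining libraries, so the values below have no baseline. Whether these counts came from material of the other population or from expression in the pool itself was not tested. Asexual replicate 1 reached 5.21% of the mean sexual level, summed over 25 models that had 20 counts or more in all sexual libraries but no more than 1 in either other asexual library. For sexual replicate 3 the matching figure was 6.99% of the mean asexual level, over 19 models. The median ratio and the count of called members are therefore given with and without these 2 libraries.

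The members lay within a narrow band of difference by the way they were chosen, so their ratios are a description and were not tested. Mean levels of single members ran from 58.8 to 727 CPM in sexual heads, with a median of 130 CPM, and from 97.4 to 1170 CPM in asexual heads, with a median of 201 CPM. The median ratio of asexual over sexual means was 1.602, with quartiles of 1.47 and 1.77. By ratio, 15 members were under 1.5, 9 were from 1.5 to under 1.6, 14 were from 1.6 to under 1.8, and 11 were from 1.8 up. Over all 2339 well-expressed models the median ratio was 0.995. CPM scales every library to the same total, so this value does not compare absolute levels between the populations. Without sexual replicate 3 and asexual replicate 1 together, the median ratio of the same 49 members was 1.5.

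Together the members held 1.12%, 1.09% and 1.04% of the counts in sexual replicates 1, 2 and 3. They held 1.93%, 1.77% and 1.66% in asexual replicates 1, 2 and 3. The share was thus 1.08% ± 0.04 in sexual and 1.79% ± 0.14 in asexual libraries (SD, n = 3). The populations did not overlap in this share, which the choice of members fixes.

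**Figure D1:**
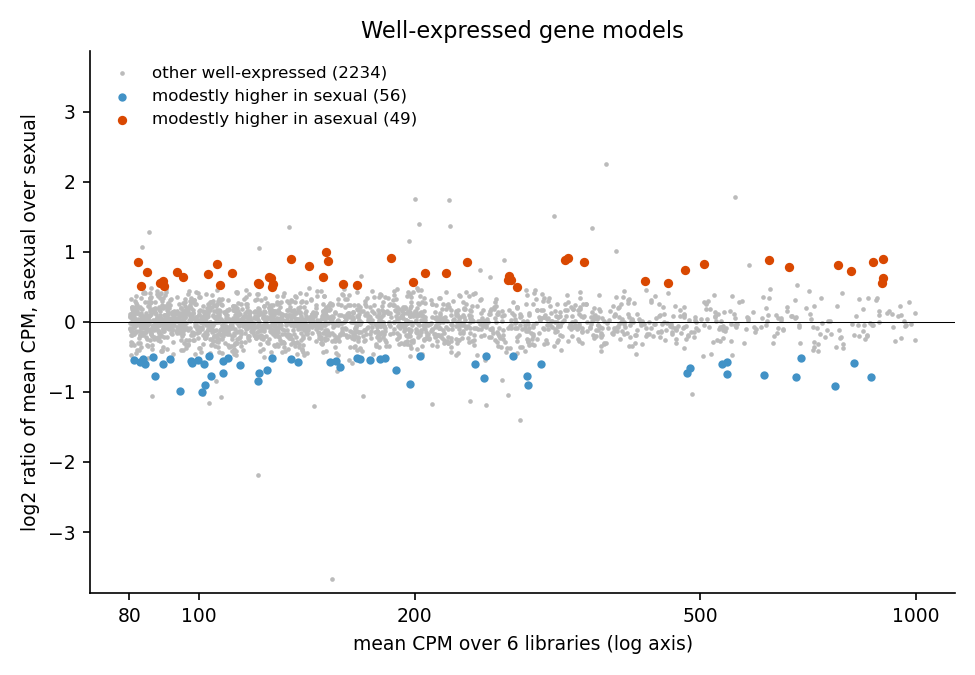
Mean CPM over the 6 libraries (log axis) against the log2 ratio of asexual over sexual mean CPM for the 2339 well-expressed models, 1 point each. The 49 members lie above 0, the 56 models that meet the same rule in the other direction lie below it, and most other models lie near 0.

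The edgeR quasi-likelihood fit over all 11700 models that passed the count filter called 49 of the 49 members higher in asexual heads (Benjamini-Hochberg adjusted p under 0.05), against a background of 795 called higher, 6.79% of all tested models. The members were selected on this same contrast, and nothing is read from that count. No overlap between populations with the asexual libraries above was seen in 17.0% of all tested models, and in 434 of the 2339 well-expressed ones, while the rule asked it of every member. The fitted log2 fold changes of the members ran from 0.50 to 1.00 with a median of 0.68, and their standard errors from 0.08 to 0.25 with a median of 0.11. Without sexual replicate 3 the fit called 40 of the members, where 420 models in all were called higher in asexual heads. Without both sexual replicate 3 and asexual replicate 1 it called 29 members, where 277 models in all were called higher. These fits used fewer libraries. Each member had at least 583 counts in every library, where counting error alone is 4.14% of the value, and the median biological coefficient of variation between pools in the fit was 0.106.

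The rule in the other direction found 56 models, with sexual over asexual means from 1.4 to under 2. Of the 55 well-expressed models in the ratio range of the members, 6 were left out because their libraries overlapped. Another 14 well-expressed models were at least 2 times higher in asexual and 14 at least 2 times higher in sexual heads. Members made up 8 of the 472 models (1.69%) with a mean of 80 to under 100 CPM and 19 of the 1073 models (1.77%) from 100 to under 200 CPM. They made up 13 of the 627 models (2.07%) from 200 to under 500 CPM and 9 of the 167 models (5.39%) from 500 to under 1000 CPM. The models higher in sexual heads also held 9 of those 167 models, and 1.59% to 2.54% of the models in the lower ranges. Both directions were thus densest at the upper end of the level range, with no test of that difference.

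Values just inside and just outside each threshold lay close together, except at the upper limit of 1000 CPM. The lowest ratio inside the set was 1.413 and the next lower ratio of a non-overlapping model at this level was 1.399. At the upper end the highest ratio inside was 1.9996 and the next above it was 2.010. The lowest mean level inside was 82.3 CPM and the nearest outside was 78.4 CPM, whereas the highest inside was 901 CPM and the next above 1000 was 1199 CPM. For the condition on overlap, the lowest asexual library was 1.01 times the highest sexual library in the member nearest to it and 0.97 times in the nearest model left out.

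**Figure D2:**
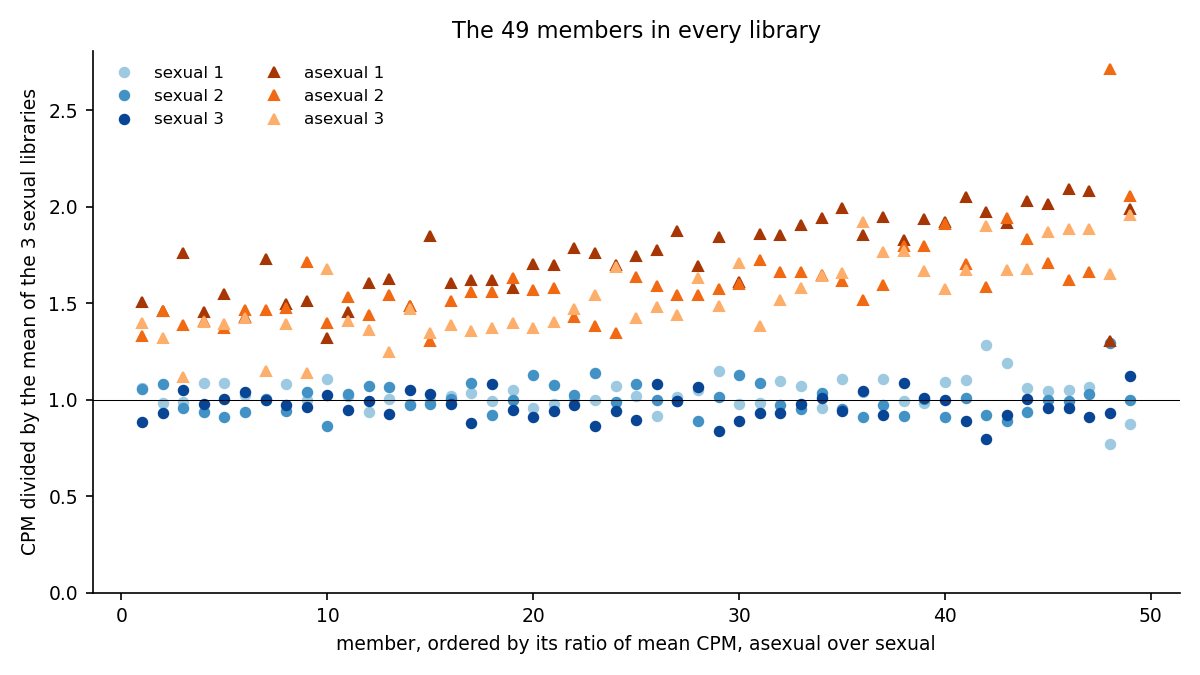
CPM of each of the 49 members in each library divided by its mean over the 3 sexual libraries, with members ordered by their ratio of means; circles are sexual and triangles asexual libraries. Triangles lie above circles in every member, as the rule requires, and asexual replicate 1 is the highest triangle in 39 of the 49.

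The member with the highest mean level was g1654. It had 677, 799 and 645 CPM in sexual replicates 1, 2 and 3 and 1205, 1109 and 968 CPM in asexual replicates 1, 2 and 3. Its means were 707 ± 81.3 CPM in sexual and 1094 ± 119 CPM in asexual libraries (SD, n = 3), a ratio of 1.55. The lowest asexual library was 1.21 times the highest sexual one, a gap smaller than the median of 1.36 over the members.

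The widest gap belonged to g15767, which had 87.9, 101 and 113 CPM in sexual and 200, 206 and 197 CPM in asexual replicates 1, 2 and 3. The means were 100 ± 12.5 CPM in sexual and 201 ± 4.86 CPM in asexual libraries (SD, n = 3), and the lowest asexual library was 1.74 times the highest sexual one. The sexual libraries were thus the more scattered ones, and sexual replicate 3 lay nearest to the asexual level. This gap was at least 1.4 in 19 members and under 1.1 in 3.

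Members differed in how closely pools of a population matched. The SD of log2 CPM within populations, pooled over both, ran from 0.04 to 0.47 over the members. Both ends are given here by identifiers singled out after their values were seen. The narrowest was g397, with 157, 157 and 168 CPM in sexual and 239, 238 and 236 CPM in asexual replicates 1, 2 and 3. The asexual pools of this model were within 3 CPM of each other. The widest was g12823, with 175, 294 and 211 CPM in sexual and 296, 615 and 375 CPM in asexual replicates 1, 2 and 3. Replicate 2 was the highest library of both populations in that model, and sexual replicate 2 came within 1.01-fold of asexual replicate 1. The median SD was 0.13 over the members, 0.12 over the 2290 other well-expressed models and 0.18 over the 56 models higher in sexual heads. The condition on overlap limits the spread a member can have, so these medians were not compared further.

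The order of the pools within the asexual population ran from replicate 1 as the highest to replicate 3 as the lowest in 26 of 49 members (53.1%), against 29.0% of the 2290 other well-expressed models. Asexual replicate 1 was the highest asexual library in 39 of 49 members (79.6%), asexual replicate 2 in 7 and asexual replicate 3 in 3. Among the other models the shares were 38.5%, 32.8% and 28.8%. Asexual replicate 3 was the lowest asexual library in 32 members (65.3%), against 49.04% of the other models. Within the sexual population, sexual replicate 3 was the lowest in 26 members (53.1%), against 23.8% of the others. The conditions on the ratio and on overlap use these same values, so the choice of members can itself shape these shares, which were not tested.

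The size of the shift can be set beside the members' median log2 fold change of 0.68 between populations. Relative to the mean of the sexual libraries, the members' median level was 1.76 in asexual replicate 1, 1.57 in asexual replicate 2 and 1.48 in asexual replicate 3. The median deviation of log2 CPM from the mean of its population was 0.12 in asexual replicate 1, -0.01 in asexual replicate 2 and -0.11 in asexual replicate 3. In the other well-expressed models these medians were 0.01, 0.02 and -0.03. In sexual replicates 1, 2 and 3 the members had medians of 0.03, 0.00 and -0.06, and the other models 0.02, -0.02 and 0.00. Asexual replicate 1, which had the highest of the members' 6 median deviations, had the lowest total of the 6 libraries, whereas asexual replicate 3, which had the lowest, had 10990209 counts. The part of depth, or of the counts in models nearly absent from the other pools of a population, in this pattern was not tested. Deviations of different members correlated by 0.28 on average over the 6 libraries, against 0.03 among the other models and -0.0044 among the models higher in sexual heads. This is a mean over pairs of models that share the same 6 libraries, and models that deviate in opposite directions cancel in it. The single pattern over libraries that best fitted each set held 44.6% of the squared deviations in members. It held 57.9% in the other models and 70.6% in the models higher in sexual heads. A higher mean correlation is therefore not read as more shared variation.

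**Figure D3:**
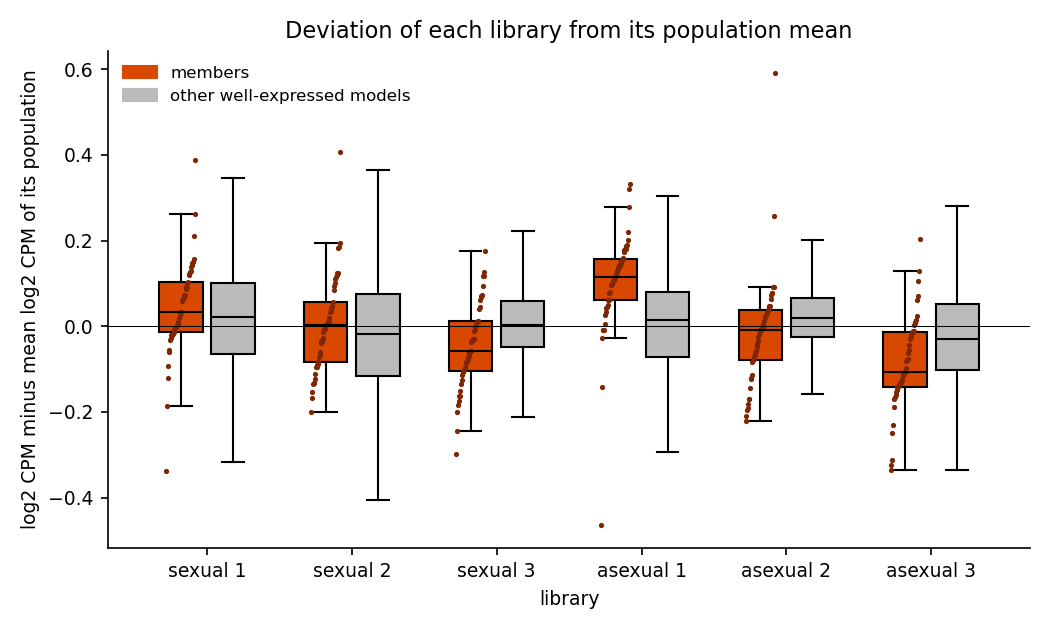
Log2 CPM minus the mean log2 CPM of its population, by library, for the 49 members (orange boxes with 1 point each) and the 2290 other well-expressed models (grey boxes, points beyond the whiskers not drawn). Boxes span the quartiles with the median as a line, and whiskers reach at most 1.5 box lengths. The members' median is 0.12 in asexual replicate 1 and -0.11 in asexual replicate 3, whereas the medians of the other models lie between -0.03 and 0.02.

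The order of the asexual pools varied with the ratio over all well-expressed models. Asexual replicate 1 was the highest asexual library in 21.1% of the 218 models with a ratio from 0.714 to under 0.833, and in 32.7% of the 904 models from there to 1. It was highest in 44.4% of the 870 models from 1 to under 1.2, in 58.5% of the 200 models from 1.2 to under 1.4 and in 74.5% of the 55 models from 1.4 to under 2. Asexual replicate 3 went the other way, from 53.7% of models at 0.714 to under 0.833 to 9.09% at 1.4 to under 2. At the extremes, with 14 models each, asexual replicate 1 was highest in 50.0% of those with a ratio of 2 or more and in 28.6% of those under 0.5. Between 0.5 and 0.714 it was highest in 35.9% of 64 models, so the share did not keep falling below a ratio of 0.714. The ratio includes asexual replicate 1 itself, so a high value there also raises the ratio.

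**Figure D4:**
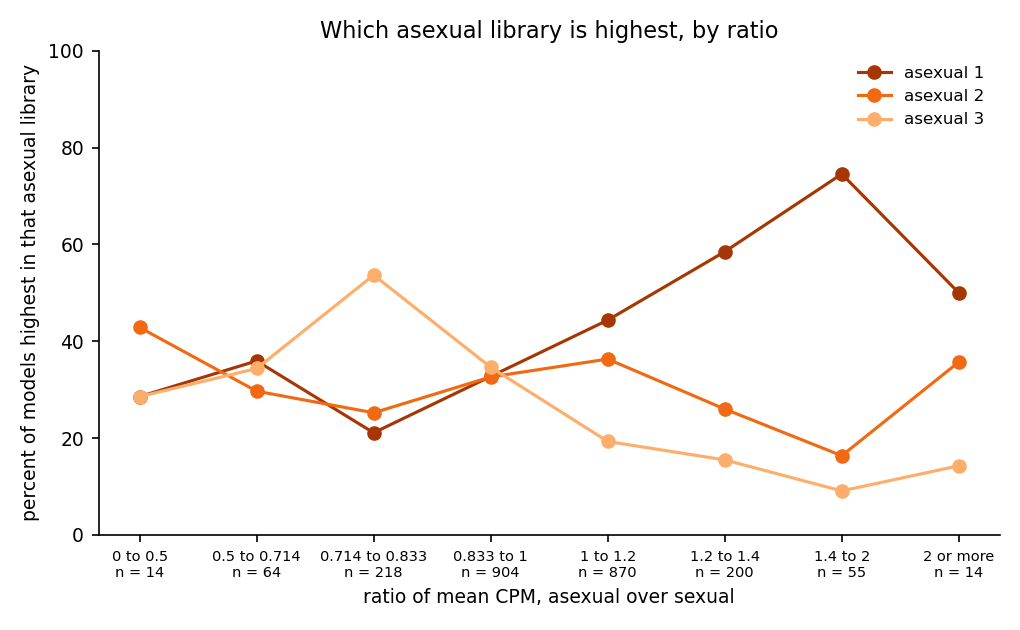
Share of well-expressed models (percent) that were highest in each of the 3 asexual libraries, by their ratio of asexual over sexual mean CPM; n is the number of models in a class. The line of asexual replicate 1 climbs from 21.1% at ratios of 0.714 to 0.833 to 74.5% at 1.4 to 2, where the line of asexual replicate 3 is at 9.09%; the classes at either end hold 14 models.

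To read the difference in a library that took no part in the choice, the rule was applied to 5 libraries and the values of the sixth were then taken, an analysis added after seeing the data. Without asexual replicate 1 the rule chose 40 models, 37 of them members. In 38 of these 40 (95.0%) asexual replicate 1 lay above all sexual libraries, against 33.5% of all well-expressed models. With asexual replicate 2 left out the count was 57 of 60 (95.0%, against 32.8%), and with asexual replicate 3 left out it was 65 of 66 (98.5%, against 25.5%). For sexual libraries, the one left out lay below all asexual libraries in 69 of 74 models for replicate 1, 56 of 57 for replicate 2 and 49 of 50 for replicate 3, against 33.1% to 37.9% of all well-expressed models. The libraries of the other population served both for the choice and for the reading, and the shares over all well-expressed models are of models that were not chosen. They give no value for models without a difference, so these counts are a description and nothing on the direction is read from them.

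The median ratio in the unused library ran from 1.39 to 1.75 over the 6 libraries. In the 40 models chosen without asexual replicate 1, its median ratio to the sexual mean was 1.75, whereas the asexual libraries used for the choice had 1.53. It was above the mean of the other 2 asexual libraries in 33 of these 40 models (82.5%), against 54.8% of all well-expressed models. Asexual replicate 3 had a median ratio of 1.39 in the 66 models chosen without it, against 1.57 in the libraries used, and was above the mean of the other 2 in 9 of them (13.6%, against 39.1% of all well-expressed models). Asexual replicate 2 had 1.54 against 1.57. With a sexual library left out, the ratio over that library was 1.45 for replicate 1, 1.53 for replicate 2 and 1.67 for replicate 3, against 1.51, 1.58 and 1.56 in the libraries used. The ratio in the unused library was at least 1.4 in 36 of 40 models for asexual replicate 1, but in 30 of 66 for asexual replicate 3. Over all well-expressed models, which were not chosen, the corresponding median ratios were 0.980 to 1.02. The other side of each ratio came from libraries that made the choice, so these ratios are no separate measure of the difference between populations. The difference between left-out libraries was not tested.

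**Figure D5:**
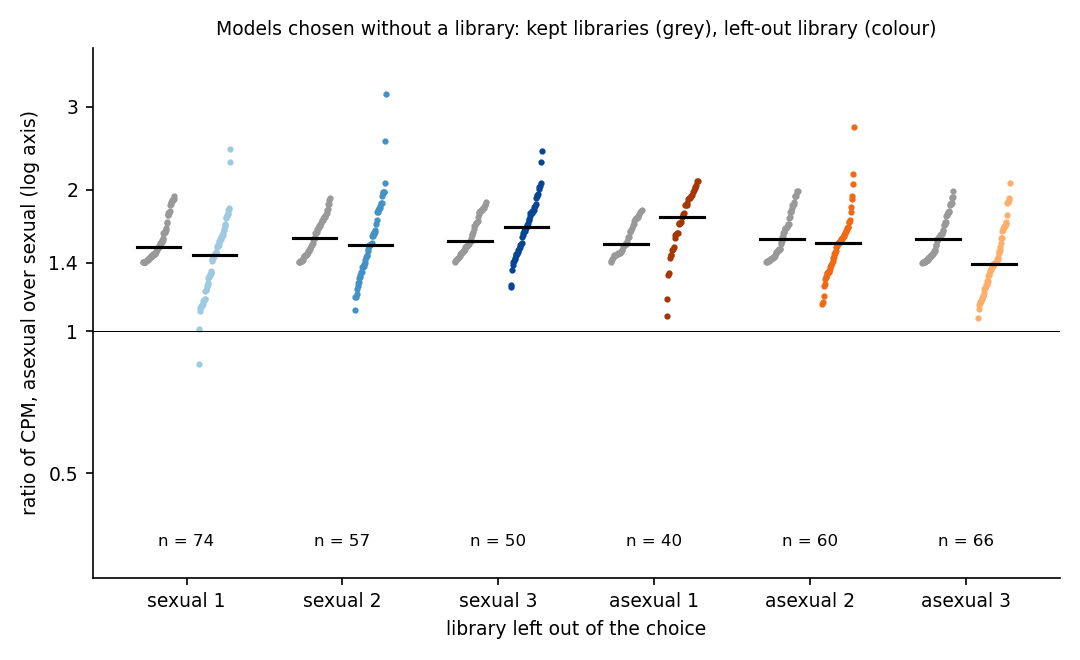
Ratio of asexual over sexual CPM (log axis) in models chosen without the library named on the x axis. Grey points use the libraries that chose them. Coloured points set the left-out library against the choosing libraries of the other population. Each point is a model and black bars are medians. Left-out asexual replicate 1 has a median of 1.75 above the 1.53 of its choosing libraries, and left-out asexual replicate 3 a median of 1.39 below 1.57.

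The rows of the deposited table gave the only other property of the members. Whether the row order follows the genome is not stated. A single pair of members, g11192 and g11193, singled out after their values were seen, lay side by side. Gene model g11192 had 130, 130 and 130 CPM in sexual and 225, 190 and 150 CPM in asexual replicates 1, 2 and 3. Gene model g11193 had 67.9, 65.8 and 72.1 CPM in sexual and 121, 95.1 and 76.5 CPM in asexual replicates 1, 2 and 3. In both, the sexual pools were close together and the asexual pools spread widely in the same order. The level of the first divided by that of the second was 1.92 ± 0.08 (SD, n = 6 libraries), with a range from 1.8 to 2.0, on counts not scaled to length. Whether both are pieces of 1 gene was not tested.

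The densest stretch of the table held 6 members within 155 rows, from row 17138 to row 17292, among 15 well-expressed models of those rows. These 6 had mean levels from 82.3 to 897 CPM and ratios from 1.468 to 1.798. The other well-expressed models of the stretch had a median ratio of 0.941, and none of the 56 models higher in sexual heads (0) lay in it. The stretch was picked as the one with most members in any 200 rows, so its count is a description. Over all 49 members, this stretch included, the median distance from one member to the next was 290.5 rows, and it was 228 rows for the 56 models higher in sexual heads.

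With untested rows skipped, tested models directly before or after a member, other than members themselves, numbered 96. Of these, 64 (66.7%) had a fitted fold change above 1 and 10 (10.4%) were called higher in asexual heads, while 3 were called lower. Among the 4580 neighbours of the other well-expressed models 50.3% were above 1 and 6.55% were called higher. These 4580 include members, and a model beside more than 1 well-expressed model was counted each time. The median log2 fold change of the neighbours was 0.07 beside members and 0.00 beside the others. These neighbours were measured in the same libraries, and it is not stated whether counting used strand, so reads shared between overlapping models are not separated here.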

How the data were processed

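RNA of 6 pools of 30 female heads, 3 per population, was made into polyadenylated, strand-marking libraries, per the labels' protocols. The authors deposited raw read counts per gene model, without normalization. Trimmomatic, HISAT2 and DESeq2 are named without role or version, per the submitters' processing notes. No counter, strand setting, annotation or build was named (not given in the sources used here). All columns map to a sample (0 left over), and 0 rows are no gene model. Identifiers were looked up among 14011 RefSeq genes (assembly ASM1945775v1), with 0 matches. Sequences were therefore not used here.

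Members were found on CPM from library totals. The fit was edgeR's quasi-likelihood test (R 4.3.3 with edgeR 4.0.16 and limma 3.58.1) on all 6 libraries, with TMM factors, filterByExpr defaults, population as the only term and Benjamini-Hochberg adjustment over 11700 models at 0.05. It was tested on simulated data. Standard errors were derived as log2 fold change over √F. TMM factors were 0.984 to 1.01. Within populations, every pair of libraries differed beyond sampling noise (chi-square per degree of freedom 8.45 to 22.0), so all 6 were kept. The labels do not say that the pools came from separate cultures, so errors measure the spread between pools. Alternatives were other scalings, filters, tools (DESeq2 1.42.0, limma-voom), thresholds, a replicate block and leaving out libraries.

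The members, lists and alternatives were chosen with earlier results of these data known. The models named by rule were the member with the highest mean CPM and the one with the widest gap between populations. The other 4 were singled out after their values were seen.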

Additional observations from a re-analysis of the deposited data

How the results depend on the processing

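The number of models that meet the rule stayed within 1.5 times of 49 with other scaling factors (48 each, with 47 and 48 shared), with no condition on overlap (55), with all identifiers (50) and with a ratio of at least 1.5 (34). It was 91 from 40 CPM, 25 from 160 CPM and 116 from a ratio of 1.3. The rule in the other direction gave 56, and 100 from 40 CPM, 26 from 160 CPM, 98 from a ratio of 1.3 and 31 from 1.5. These changes follow from the limits set. With single libraries left out, the rule for the members gave 40 to 74 models, highest without sexual replicate 1, and the cause was not tested. Calls higher in asexual heads over all models were 795, and 369 at an adjusted p under 0.01, 420 to 788 without single libraries (454 without asexual replicate 2, 516 without asexual replicate 1) and 277 without sexual replicate 3 and asexual replicate 1 together. Of the 49 members, 40 to 49 stayed called in the fits without 1 library, 41 at 0.01, 48 by DESeq2 and 29 without both libraries. The cause was not tested. With the replicate block, 592 models and 48 members were called higher. Deviations from the population means correlated by -0.27, 0.03 and 0.07 between libraries 1, 2 and 3 of either population, so the numbers were not taken as pairs, and 0 of 3 sexual libraries matched their own number best. Asexual replicate 1 was highest in 37 members with TMM or DESeq2 scaling, added after seeing the data. Without single libraries the median ratio ran from 1.53 to 1.64, and it was 1.58 under TMM scaling. The members' share of counts ran from 1.07% to 1.11% in sexual and from 1.72% to 1.85% in asexual libraries. Under TMM scaling these shares were 1.06% and 1.75%. The median SD within populations ran from 0.12 to 0.14 and was 0.13 under TMM scaling. Leaving out 1 of 3 libraries can move a mean only in part, so these ranges are a description.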
